A study of Homo sapiens with 6 samples.

Results

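The genes described here encode the nuclear pore and the soluble machinery that carries protein and RNA through it. They were chosen by name, as 50 genes in all, with earlier results of these data known. Each was represented by its human probe set with the highest mean log2 intensity over the 6 arrays. Of the 50, 49 passed the filter on low values and were tested, among 12198 tested genes. They comprise 24 nucleoporins, 14 import receptors and adaptors, 7 exportins and 5 genes of the Ran cycle. KPNA2, an importin alpha, had no probe set listed under its symbol alone and is not analysed here.

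The cells were P493-6, a human B-cell lymphoma line that carries a c-Myc transgene which tetracycline keeps repressed. All groups were grown in RPMI 1640 with FBS, and they differed in how long c-Myc had been released: 0 hours in low-Myc, 1 hour in mid-Myc and 24 hours in high-Myc cells. Each group had 2 one-colour Affymetrix arrays, which the design text calls biological duplicates. ERCC synthetic RNAs had been added by cell number before labelling. The protocol fields of the mid-Myc samples disagree, naming 0 hours in the growth field and 1 hour in the treatment field, and 1 hour is taken here. The mid-Myc samples are not numbered next to the rest. An array batch, if there was one, therefore cannot be told apart from the 1-hour change or from the change between 1 and 24 hours. All groups are 1 cell line, and in bulk RNA fewer cells of a kind and less RNA per cell cannot be told apart.

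As background, the nuclear pore is built of stacked rings of scaffold nucleoporins around a channel filled by nucleoporins with phenylalanine-glycine (FG) repeats, with filaments on the cytoplasmic side and a basket on the nuclear side. Importins pick up cargo in the cytoplasm and release it in the nucleus when they bind RanGTP, whereas exportins bind their cargo together with RanGTP and release it when the GTP is hydrolysed. MYC is a transcription factor that binds the E-box CACGTG with its partner MAX and is known for raising genes of growth, and growing cells import ribosomal proteins and export ribosomal subunits through these pores.

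Differences are given on 2 scales, both in log2. The equal-median scale sets the human median of every array to the same level, so a difference there is relative to the other RNAs. The per-cell scale subtracts a curve through the ERCC probe sets, so a difference there is relative to the RNA added by cell number. Differences are given with the standard error (SE) of a limma fit over the 6 arrays, and a gene was called when its Benjamini-Hochberg adjusted p over all tested genes was below 0.05. With 2 arrays a group, the smallest p that an exact permutation test allows is 0.333.

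MYC was read at 10472 and 10279 in low-Myc, 10031 and 9941 in mid-Myc and 11888 and 11979 in high-Myc cells, in deposited intensity. Whether this bright probe set reads the transgene was not tested. Replicates correlated at r = 0.996 across genes in each group. B cell markers summed to 15171 to 15325 in high-Myc and to 23035 to 23202 in low-Myc cells over the 7 of 8 markers with a probe set, of which 6 passed the filter, while T and NK cell markers summed to 184 to 282 over all arrays and erythroid markers to 81.7 to 132. Monocyte markers, of which 3 of 4 passed the filter, summed to 510.4 to 532 in high-Myc and 1445 to 1459.7 in low-Myc cells. Most of this sum was LYZ, read at 397 and 377 in high-Myc and 1206 and 1191 in low-Myc cells. The part of this shift in the results below was not tested. The ACTB 3′ to 5′ probe ratio was 3.56 ± 0.16 in high-Myc and 2.81 ± 0.07 in low-Myc cells (SD, n = 2 each), and its part was not tested either, while the GAPDH ratio was 1.18 ± 0.04 and 1.17 ± 0.06 in the same groups. The ERCC probe sets of 100 to 4000 intensity, 31 in number, were read 2.56-fold lower in high-Myc and 1.31-fold lower in mid-Myc than in low-Myc cells.

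After 24 hours of release, transcripts of the pore and its receptors had risen nearly throughout. On the equal-median scale 48 of the 49 tested genes were called higher in high-Myc against low-Myc cells and none lower (limma, also 48 and 0 at an unadjusted p under 0.05), with a median difference of 0.97 and a range of 0.07 to 2.43. Over all tested genes 37.7% were called higher and 26.0% lower, with a median of 0.05. All 49 genes lay above the median of all tested genes, and 23 were at least 1 log2 higher. IPO9 was the exception to the calls. The share of called genes that were higher over the whole array was 59.2%, and it was 47.2% after quantile normalization, 41.5% with centring on tested genes and 46.9% in the values as deposited, while 46 of the 49 pore and transport genes were called higher under each of these.

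**Figure D1:**
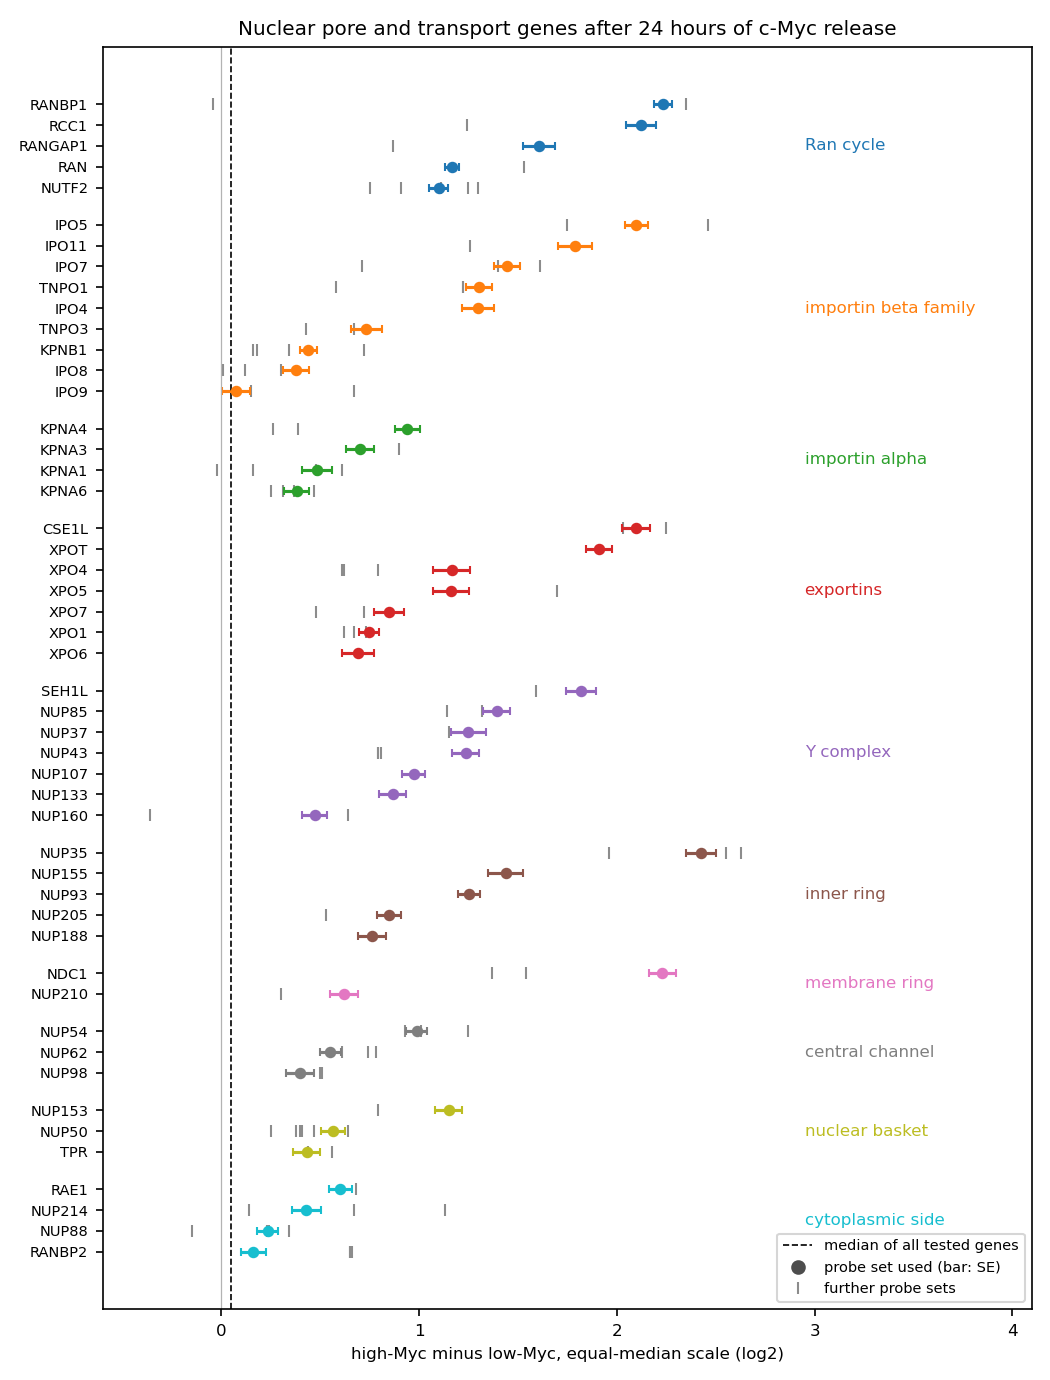
Difference between high-Myc and low-Myc cells on the equal-median scale (x axis, log2) for each tested gene, grouped by role. Dots are the probe sets used, bars their SE, grey ticks the further probe sets of the same gene, and the dashed line the median of all tested genes (0.05). The Ran cycle genes lie between 1.10 and 2.23 and the cytoplasmic-side nucleoporins between 0.16 and 0.60, where RANBP2, the lowest, is below 0 after quantile normalization and with centring on tested genes.

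The Ran cycle rose most as a group in the equal-median median, with 5 of 5 genes called higher in high-Myc cells, a median of 1.61 and a range of 1.10 to 2.23. These are the GTPase itself and the proteins that charge, discharge and carry it. RANBP1, which helps to strip RanGTP from transport receptors in the cytoplasm, was read at 1173 and 1129 in low-Myc, 1167 and 1153 in mid-Myc and 4896 and 4935 in high-Myc cells. Both high-Myc arrays lay far above the other 4, which overlapped each other. The high-Myc minus low-Myc difference was 2.23 (SE 0.05, limma adjusted p = 4.13e-13), higher than 99.0% of all tested genes. A second RANBP1 probe set gave 2.35, and the dimmest, at a mean intensity of 45.4, gave -0.04.

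NUTF2, which carries RanGDP back into the nucleus, had the smallest difference of the cycle. Its intensity was 1214 and 1169 in low-Myc, 1374 and 1350.2 in mid-Myc and 2289 and 2347 in high-Myc cells. The 3 groups did not overlap, and the high-Myc minus low-Myc difference was 1.10 (SE 0.05, limma adjusted p = 1.86e-10). RAN itself was read at 3896 and 3796 in low-Myc, 4034 and 3944 in mid-Myc and 7909 and 7784 in high-Myc cells. Its difference at 24 hours was 1.17 (SE 0.04, limma adjusted p = 7.69e-12), and a further RAN probe set gave 1.53. RCC1, the chromatin-bound factor that loads Ran with GTP, differed by 2.12, and RANGAP1, which triggers GTP hydrolysis in the cytoplasm, by 1.61. Further probe sets gave 1.24 for RCC1 and 0.87 for RANGAP1, whose 1.61 is the median of the cycle. The low-Myc and mid-Myc arrays of both genes lay below 194, the second highest mean intensity of a background probe set.

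**Figure D2:**
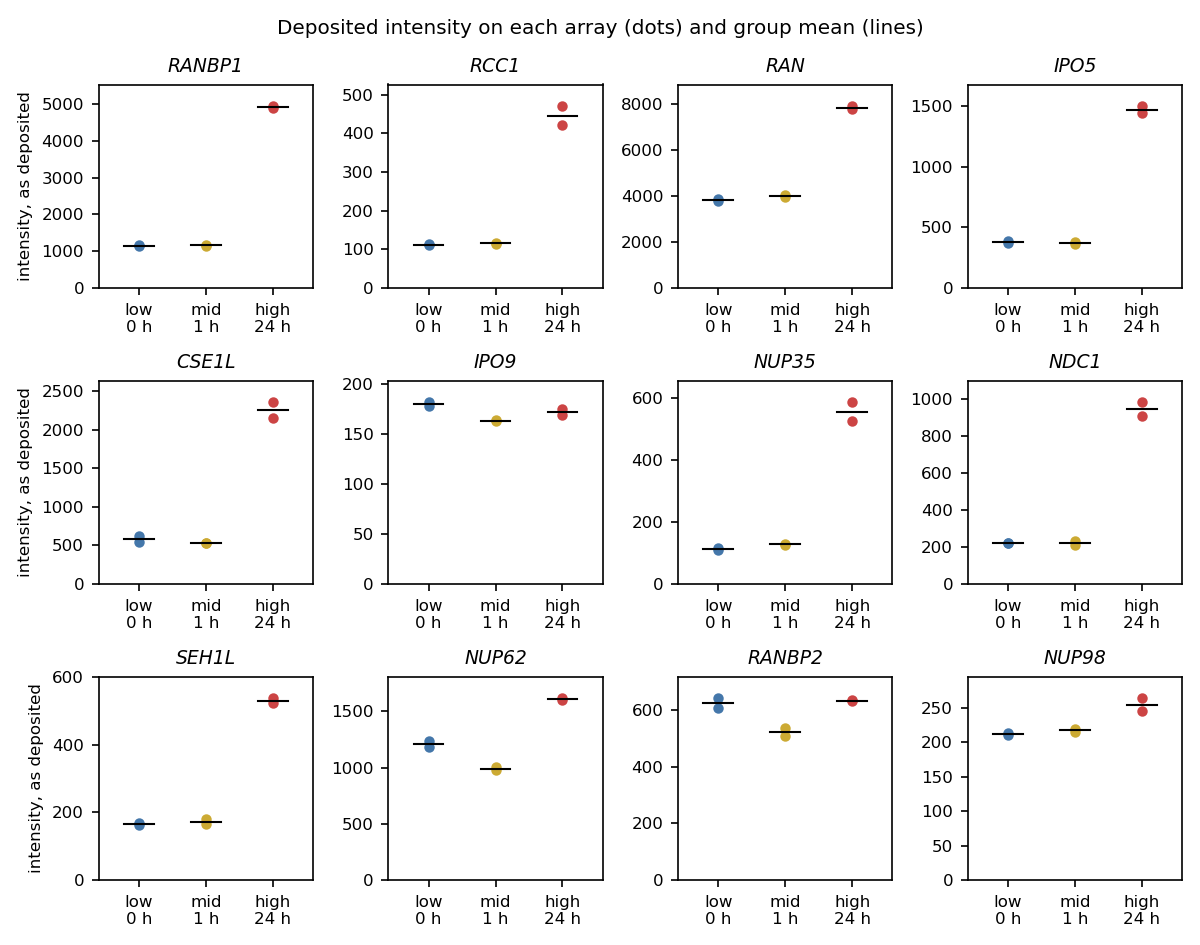
Deposited intensity (y axis, linear, from 0) of 12 genes on each of the 6 arrays, as dots, with group means as lines, at 0, 1 and 24 hours of c-Myc release. In the panels of RANBP1, RCC1, RAN, IPO5, CSE1L, NUP35, NDC1 and SEH1L the high-Myc arrays stand apart, whereas in those of IPO9 and RANBP2 the high-Myc and low-Myc arrays lie at like levels, and the RANBP2 difference changes sign with quantile normalization and with centring on tested genes.

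The import receptors of the importin beta family spread more widely. Of the 9, 8 were called higher in high-Myc cells, with a median of 1.30 and a range of 0.07 to 2.10. IPO5, an importer of ribosomal proteins and histones, was read at 386 and 369 in low-Myc, 381 and 359 in mid-Myc and 1496 and 1439 in high-Myc cells. The low-Myc and mid-Myc arrays overlapped and the high-Myc arrays stood apart, by 2.10 over low-Myc (SE 0.06, limma adjusted p = 4.07e-12). IPO9, an importer of histones, was read at 178 and 182 in low-Myc, 164 and 163 in mid-Myc and 175 and 169 in high-Myc cells. Its high-Myc arrays lay below its low-Myc arrays before centring, and its difference on the equal-median scale was 0.07 (SE 0.07, limma adjusted p = 0.405), below 0 after quantile normalization, after cyclic loess, with centring on tested genes and in the values as deposited. Other IPO9 probe sets gave 0.67 and 0.15, and the mean of all its probe sets gave 0.30 with a limma adjusted p of 0.00173.

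Between these ends, IPO11 differed by 1.79, IPO7, an importer of ribosomal proteins, by 1.45, and IPO4 and TNPO1, an importer of hnRNP proteins, by 1.30 each. TNPO3, which imports SR splicing factors, differed by 0.73. KPNB1, the receptor of the classical pathway that works with importin alpha, differed by 0.44 (SE 0.04, limma adjusted p = 6.2e-07). IPO7 and IPO8 are close paralogues, and their values stood at 1.45 (SE 0.07) and 0.38 (SE 0.06). The difference between paralogues was not tested.

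The importin alpha adaptors, which bridge classical nuclear localization signals to KPNB1, rose less in the median. All 4 tested were called higher in high-Myc cells, with a median of 0.59 and a range of 0.38 to 0.94. KPNA4 had the largest difference and was read at 571 and 527 in low-Myc, 589 and 538 in mid-Myc and 986 and 927 in high-Myc cells. Only the high-Myc arrays stood apart, and the difference was 0.94 (SE 0.06, limma adjusted p = 1.52e-08), although further KPNA4 probe sets gave 0.39 and 0.26. KPNA6 had the smallest difference, with 639.8 and 595 in low-Myc, 573 and 580.3 in mid-Myc and 715 and 745 in high-Myc cells. Its groups did not overlap between high-Myc and low-Myc, and the difference was 0.38 (SE 0.06, limma adjusted p = 9.68e-05).

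The windows before the start sites of these genes were searched for the E-box because the study varies MYC. Of the tested genes, 44 matched RefSeq promoters (GRCh38.p14) by symbol, with 57 windows of 250 bases before to 50 after the start site. CACGTG, which is its own reverse complement and so was searched on both strands at once, was present in 8 of the 57 windows (14.0%), against 2548 of 35116 windows (7.26%) over all promoters in the table. The genes with the motif had a median high-Myc minus low-Myc difference of 0.97 (n = 8, range 0.56 to 2.12) and those without it 0.98 (n = 36, range 0.07 to 2.43), both on the equal-median scale. A match is a description of letters and not of binding. The share over windows of all tested genes was not computed, so an excess in the pore and transport genes cannot be read from these shares. The 3 windows with the motif whose genes differed most are shown with the motif in capitals, 250 bases before the start site, 5′ to 3′ on the gene's strand. They lie at chr1:28517976-28518225 (plus strand, RCC1), chr11:9384402-9384651 (plus strand, IPO7) and chr14:24188817-24189066 (minus strand, IPO4), and the motif begins at -190, -138 and -29 bases from the start site.
RCC1: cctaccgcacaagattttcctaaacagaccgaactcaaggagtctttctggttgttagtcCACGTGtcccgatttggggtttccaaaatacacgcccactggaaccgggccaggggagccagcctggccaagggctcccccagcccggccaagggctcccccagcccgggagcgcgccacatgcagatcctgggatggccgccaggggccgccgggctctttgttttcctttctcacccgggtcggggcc
IPO7: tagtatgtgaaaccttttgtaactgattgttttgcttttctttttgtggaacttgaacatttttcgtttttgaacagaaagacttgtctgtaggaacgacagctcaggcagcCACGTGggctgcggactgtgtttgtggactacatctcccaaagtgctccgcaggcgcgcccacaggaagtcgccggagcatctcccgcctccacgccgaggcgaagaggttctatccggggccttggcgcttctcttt
IPO4: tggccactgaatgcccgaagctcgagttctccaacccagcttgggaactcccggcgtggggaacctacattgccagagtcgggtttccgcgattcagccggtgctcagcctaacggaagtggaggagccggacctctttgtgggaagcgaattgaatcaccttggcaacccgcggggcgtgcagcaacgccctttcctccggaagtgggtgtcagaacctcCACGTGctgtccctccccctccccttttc

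All 7 exportins were called higher in high-Myc cells, with a median of 1.16 and a range of 0.69 to 2.10. CSE1L, which returns importin alpha to the cytoplasm, was read at 619 and 542 in low-Myc, 535 and 527 in mid-Myc and 2151 and 2353 in high-Myc cells. Both high-Myc arrays stood above all others, by 2.10 over low-Myc (SE 0.07, limma adjusted p = 1.83e-11). XPOT, the exporter of tRNA, differed by 1.91, XPO4 by 1.17 and XPO5, the exporter of microRNA precursors, by 1.16. XPO1, the main exporter of proteins with leucine-rich signals and of ribosomal subunits, was read at 939 and 908 in low-Myc, 847 and 843 in mid-Myc and 1426 and 1391 in high-Myc cells. Its difference was 0.75 (SE 0.05, limma adjusted p = 1.52e-08). XPO6, the exporter of actin, was lowest of the group, with 219 and 215 in low-Myc, 178 and 194 in mid-Myc and 339 and 299 in high-Myc cells and a difference of 0.69 (SE 0.08, limma adjusted p = 3.61e-06).

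All 24 nucleoporins were called higher in high-Myc against low-Myc cells on the equal-median scale, with a median of 0.86, and 9 of them were at least 1 log2 higher. RANBP2 was the only one of the 24 whose direction turned under the scalings run, and its call was lost under several alternatives given with its values. NUP88 had the next smallest difference, at 0.235 (SE 0.053, limma adjusted p = 0.00143). Its further probe sets gave 0.34, 0.24, 0.23 and -0.15, the last at a mean intensity of 44.2, so its call is not to be taken as firm. The sizes ran unevenly over the parts of the pore. Medians were 1.43 for the membrane ring (2 genes), 1.25 for the inner ring (5 genes) and 1.24 for the Y complex (7 genes). They were 0.56 for the nuclear basket (3 genes), 0.55 for the central channel (3 genes) and 0.33 for the cytoplasmic side (4 genes). Differences between these parts were not tested.

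The Y complex forms the outer rings of the pore, and its 7 genes ranged from 0.47 to 1.82. SEH1L, which the complex shares with regulators of mTORC1, was read at 169 and 163 in low-Myc, 165 and 181 in mid-Myc and 538 and 524 in high-Myc cells. The high-Myc arrays stood apart, by 1.82 (SE 0.07, limma adjusted p = 9.83e-11). NUP160 had the smallest difference, with 427 and 424 in low-Myc, 385 and 405 in mid-Myc and 544 and 528 in high-Myc cells. The difference was 0.47 (SE 0.06, limma adjusted p = 1.36e-05), a second probe set gave 0.64 and the dimmest above the filter, at a mean intensity of 141, gave -0.36. The remaining Y complex genes were NUP85 at 1.39, NUP37 at 1.25, NUP43 at 1.24, NUP107 at 0.97 and NUP133 at 0.87.

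The inner ring holds the scaffold against the pore membrane, and its 5 genes ranged from 0.76 to 2.43. NUP35, which binds the membrane, had the largest measured difference of the 49 genes. It was read at 117 and 110.3 in low-Myc, 129.9 and 126 in mid-Myc and 587 and 526 in high-Myc cells. The 3 groups did not overlap, and high-Myc exceeded low-Myc by 2.43 (SE 0.08, limma adjusted p = 9.83e-12). Its low-Myc and mid-Myc arrays lay below 194, the second highest mean intensity of a background probe set, so the size of the difference, and its place among the genes, rests on readings within the background range. Its further probe sets gave 2.63, 2.55 and 1.96. NUP188 was lowest, with 325 and 333 in low-Myc, 308 and 304 in mid-Myc and 479 and 537 in high-Myc cells. Its difference was 0.76 (SE 0.07, limma adjusted p = 3.88e-07), against 0.85 for NUP205, the related large scaffold protein. NUP155 differed by 1.44 and NUP93 by 1.25.

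The membrane proteins of the pore stood at 2 ends. NDC1, which spans the pore membrane, was read at 224 and 219 in low-Myc, 234 and 213 in mid-Myc and 981 and 908 in high-Myc cells. The low-Myc and mid-Myc arrays overlapped, and high-Myc exceeded low-Myc by 2.23 (SE 0.07, limma adjusted p = 7.24e-12). Its further probe sets gave 1.54 and 1.37. NUP210, the other membrane protein, was read at 261 and 245 in low-Myc, 298 and 296 in mid-Myc and 345 and 362 in high-Myc cells. All 3 groups were apart, with a high-Myc minus low-Myc difference of 0.62 (SE 0.07, limma adjusted p = 2.61e-06).

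The FG nucleoporins of the central channel and the genes of the periphery rose by less in the median. NUP54 was read at 692 and 669 in low-Myc, 636 and 608 in mid-Myc and 1225 and 1228 in high-Myc cells, a difference of 0.99 between high-Myc and low-Myc (SE 0.05, limma adjusted p = 1.54e-09). NUP98, whose precursor also encodes a Y complex protein, was read at 211 and 214 in low-Myc, 219.7 and 215 in mid-Myc and 245 and 264 in high-Myc cells. Its high-Myc arrays were above the other 4, by 0.40 over low-Myc (SE 0.07, limma adjusted p = 0.000238). NUP62, which sits with NUP54 in the channel, differed by 0.55.

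In the nuclear basket, NUP153, which anchors the basket to the pore, was read at 448 and 393 in low-Myc, 405 and 383 in mid-Myc and 857 and 834 in high-Myc cells. Its difference was 1.15 (SE 0.07, limma adjusted p = 4.8e-09), the only one of the 3 basket genes above 1 log2. TPR, which forms the basket filaments, was read at 374 and 375 in low-Myc, 382 and 372 in mid-Myc and 487 and 432 in high-Myc cells. The difference was 0.43 (SE 0.07, limma adjusted p = 6.24e-05).

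On the cytoplasmic side, RAE1, an mRNA export factor bound by NUP98, was highest, with 695 and 678 in low-Myc, 700.5 and 680.5 in mid-Myc and 919 and 974 in high-Myc cells. Its difference was 0.60 (SE 0.06, limma adjusted p = 4.92e-07). RANBP2, the large protein of the cytoplasmic filaments that holds RANGAP1 at the pore, was read at 642 and 606 in low-Myc, 509 and 536 in mid-Myc and 636 and 631 in high-Myc cells. High-Myc and low-Myc arrays overlapped, and the difference of 0.16 (SE 0.06, limma adjusted p = 0.038) became -0.07 after quantile normalization and -0.04 with centring on tested genes. The call was also lost in the values as deposited (0.02, limma adjusted p = 0.737), after cyclic loess (0.03, limma adjusted p = 0.619), with log2(value + 16) (limma adjusted p = 0.0796) and without a variance trend (limma adjusted p = 0.0881). Without low-Myc replicate 2 its limma adjusted p was 0.213, without high-Myc replicate 1 it was 0.0959 and without high-Myc replicate 2 it was 0.119. The other RANBP2 probe sets gave 0.66, 0.65 and 0.65. RANBP2 has near-identical copies in the RGPD genes, and whether any of these probe sets reads those too was not tested.

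Relative to the other RNAs, few of these genes moved in the first hour of release. On the equal-median scale 10 of the 49 were called higher in mid-Myc than in low-Myc cells (20.4%) and none lower (limma, 21 and 1 at an unadjusted p under 0.05). Over all tested genes 25.7% were called higher and 3.39% lower. Among the 5263 brighter genes left by an 80th percentile filter, 50.6% were called higher and 3.9% lower. The background share thus varies with brightness, and 20.4% is near the first share and below the second. The count of pore and transport genes was 2 higher and 7 lower after quantile normalization and after cyclic loess, 3 and 4 with centring on tested genes, 2 and 5 in the values as deposited, 4 and 0 without a variance trend, 4 and 0 without low-Myc replicate 2 and 5 and 0 without mid-Myc replicate 2. Their median difference was 0.10 against 0.09 over all tested genes, and it turned to -0.06 after quantile normalization, -0.05 after cyclic loess, -0.01 with centring on tested genes and -0.05 in the values as deposited. Of all called genes 88.3% were higher, and this share was 44.4%, 50.5%, 58.6% and 43.2% in those same 4 scalings.

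The 10 genes called higher at 1 hour were NUP210, NUTF2, NUP35, NUP205, NUP85, RAN, KPNA4, NUP93, KPNB1 and RANBP1. NUP210 had the largest difference at 0.38 (SE 0.07, limma adjusted p = 0.00125), then NUTF2 at 0.34 (SE 0.05, limma adjusted p = 0.00021) and NUP35 at 0.32 (SE 0.08, limma adjusted p = 0.00745). The other NUP210 probe set gave 0.02 at 1 hour and 0.30 at 24 hours. In each of these 3 both mid-Myc arrays were above both low-Myc arrays as deposited, as the intensities above show. RANBP1 had the smallest at 0.16. RANBP1, RAN and KPNB1 turned below 0 after quantile normalization and cyclic loess and NUP93 after quantile normalization, none of them called there. Further probe sets gave -0.03 for NUP205, 0.56 and -0.06 for KPNA4, -0.09 to 0.04 for KPNB1 and 0.08 and -0.00 for RANBP1. The 1-hour rise of these genes thus depends on the probe set. Further sets gave 0.12 and 0.01 for NUP85, 0.29 for RAN, 0.26 to 0.61 for NUP35 and 0.11 to 0.37 for NUTF2. None of the 7 exportins was called at 1 hour (limma, 0 at an unadjusted p under 0.05), beside 25.7% higher and 3.39% lower over all tested genes. Their differences ran from -0.08 to 0.12, while XPO1 was called lower after quantile normalization and after cyclic loess.

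At the other end stood NUP62 at -0.14 (SE 0.05, limma adjusted p = 0.0625), NUP37 at -0.12 (SE 0.09, limma adjusted p = 0.371) and NUP43 at -0.11 (SE 0.07, limma adjusted p = 0.25), none of which passed the test. The other NUP62 probe sets gave 0.24, 0.20 and 0.04 at 1 hour and the other NUP37 set 0.03, so the sign of these genes depends on the probe set, whereas the further NUP43 sets gave -0.04, -0.21 and -0.27. NUP62 was read at 1233 and 1182 in low-Myc, 977 and 1002 in mid-Myc and 1616 and 1597 in high-Myc cells. Its mid-Myc arrays were the lowest and its high-Myc arrays the highest of the 6. NUP37 was read at 221 and 183 in low-Myc, 164 and 170.5 in mid-Myc and 442 and 426 in high-Myc cells. NUP43 was read at 326 and 364 in low-Myc, 282 and 293 in mid-Myc and 748 and 726 in high-Myc cells. Both show the same order of groups as NUP62 before centring.

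**Figure D3:**
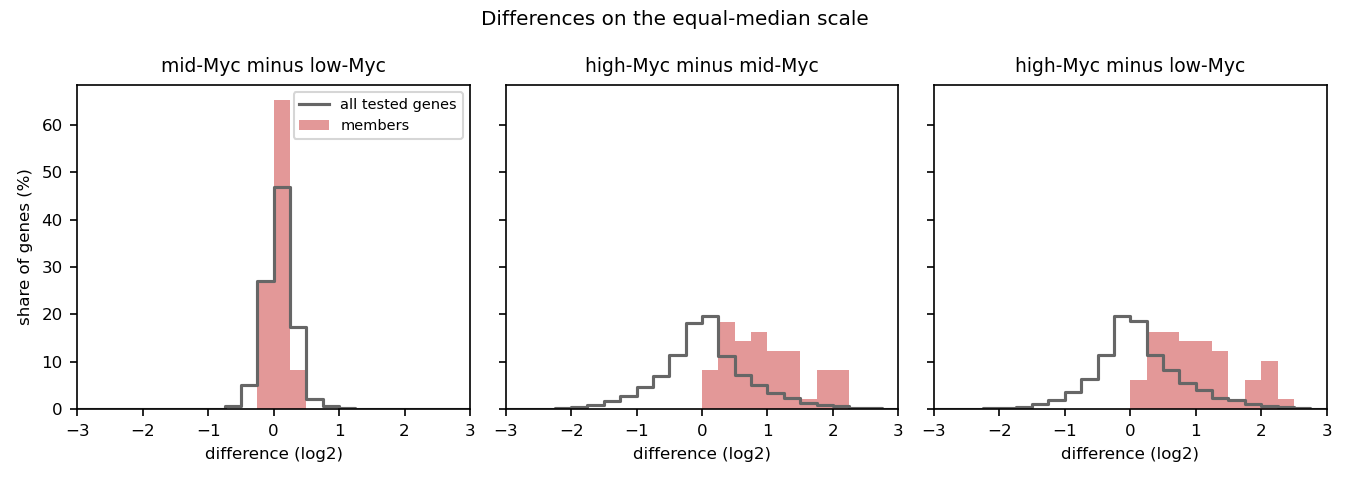
Share of genes (y axis, percent) by difference on the equal-median scale (x axis, log2, bins of 0.25, shown from -3 to 3), for mid-Myc minus low-Myc, high-Myc minus mid-Myc and high-Myc minus low-Myc. Filled bars are the 49 pore and transport genes and the line all tested genes. At 1 hour both centre near 0.1, a position that drops below 0 in other scalings, and in both comparisons of high-Myc the pore and transport genes lie above 0, apart from IPO9 and RANBP2 in some other scalings.

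Between 1 and 24 hours, 48 of the 49 genes were called higher in high-Myc than in mid-Myc cells and none lower (limma, also 48 and 0 at an unadjusted p under 0.05), with a median of 0.91 and a range of 0.06 to 2.11. Over all tested genes 33.3% were called higher and 30.9% lower, with a median of 0.02. This comparison shares the high-Myc arrays with the one against low-Myc cells, so the values are set side by side only. NUP35 stood at 2.11 against mid-Myc and 2.43 against low-Myc, CSE1L at 2.07 and 2.10, RANBP1 at 2.07 and 2.23 and NUP210 at 0.24 and 0.62. IPO9 was again not called, at 0.06 (SE 0.07, limma adjusted p = 0.467).

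On the per-cell scale every tested gene of the list rose by 24 hours. All 49 were called higher in high-Myc against low-Myc cells, with a median of 2.07 and a range of 1.14 to 3.51. So were 91.0% of all tested genes, with 2.47% lower and a median of 0.98, so the calls themselves are near the background here, and all 49 genes lay above that median. NUP35 had the largest per-cell difference at 3.51 (SE 0.07), measured against low-Myc arrays within the range of background probe sets, NDC1 followed at 3.37 (SE 0.06) and IPO9 was smallest at 1.14 (SE 0.07). The Ran cycle had a per-cell median of 2.71, the exportins 2.11, the nucleoporins 1.98 and the import receptors 1.87.

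At 1 hour 42 of the 49 genes were called higher per cell in mid-Myc than in low-Myc cells and none lower (limma, 43 and 0 at an unadjusted p under 0.05), with a median of 0.29. Over all tested genes 62.7% were called higher and 0.672% lower, with a median of 0.30. Among the 5263 brighter genes left by an 80th percentile filter 91.0% were called higher, so the count of 42 is not to be read as an excess. The 7 not called were NUP62 at 0.06, NUP37 and NUP43 at 0.12 each, XPO6 at 0.16, NUP155 at 0.19, XPO5 at 0.20 and IPO11 at 0.21. Between 1 and 24 hours all 49 were called higher per cell, with a median of 1.76, beside 81.8% of all tested genes higher and 6.48% lower, with a median of 0.72. The error of the curve through the ERCC probe sets is shared by all genes and is not part of these SEs.

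**Figure D4:**
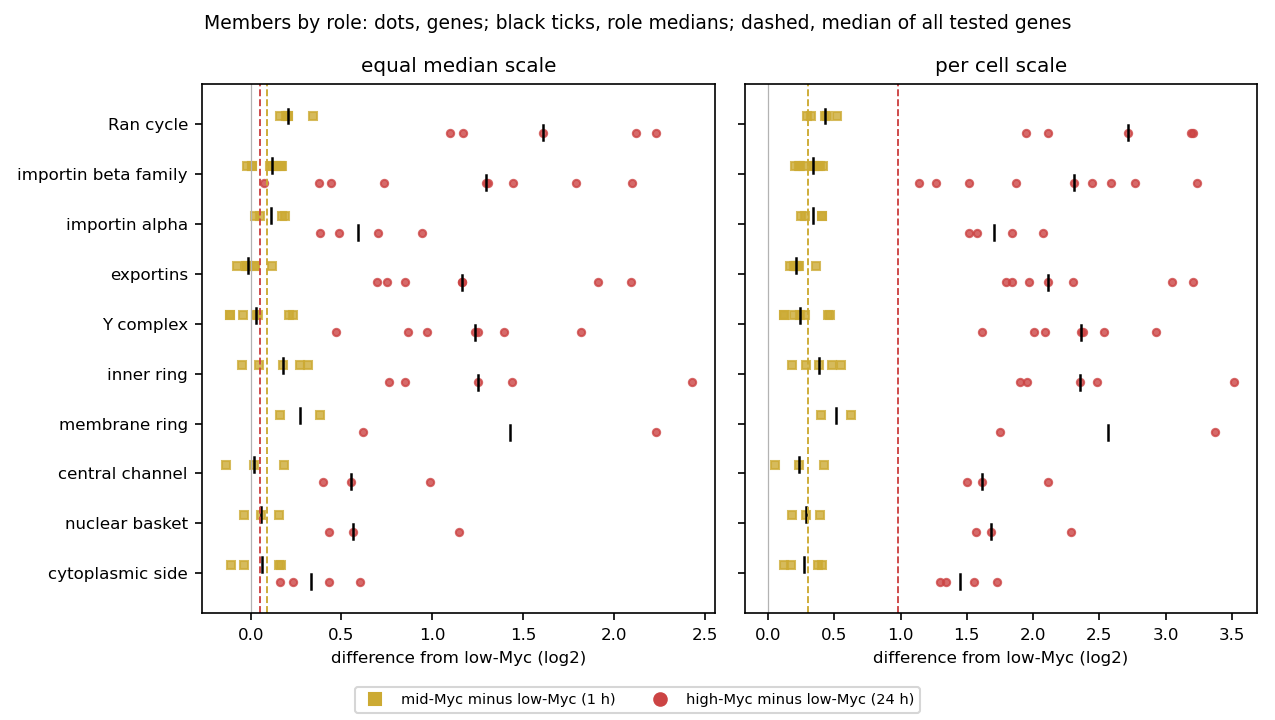
Differences from low-Myc cells (x axis, log2) by role on the equal-median scale (left) and the per-cell scale (right). Squares are mid-Myc and dots high-Myc genes, black ticks are role medians, and the dashed lines are the medians of all tested genes, which are 0.09 and 0.05 on the left and 0.30 and 0.98 on the right for mid-Myc and high-Myc. At 24 hours the role medians run from 0.33 (cytoplasmic side) to 1.61 (Ran cycle) on the left, while RANBP2 on the cytoplasmic side falls below 0 with quantile normalization and centring on tested genes.

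Lists of other genes around the pore were read in the same fit, on the equal-median scale at 24 hours, where 37.7% of all tested genes were called higher and 26.0% lower. Of 7 other pore proteins, 5 were called higher in high-Myc cells and none lower (limma, 5 and 0 at an unadjusted p under 0.05). AHCTF1, which seeds new pores on chromatin, differed by 1.19 (SE 0.10) and NUP58, a channel FG nucleoporin, by 1.02 (SE 0.07), whereas AAAS stood at 0.07 (SE 0.11, limma adjusted p = 0.588) and POM121C at -0.14 (SE 0.15, limma adjusted p = 0.468). Of 8 other receptors and Ran factors, 6 were tested and 4 were called higher. TNPO2, the paralogue of TNPO1, differed by 1.5 (SE 0.07) and PHAX, the snRNA export adaptor, by 0.69, whereas IPO13 stood at 0.00 (SE 0.14) and RANBP3, a cofactor of XPO1, at -0.03 (SE 0.13).

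Bulk mRNA export runs through the receptor NXF1 without RanGTP. Its genes were 20 in number, of which 19 were tested, 13 were called higher in high-Myc cells and 1 lower, against 37.7% and 26.0% of all tested genes, with a median of 0.41. ALYREF, an export adaptor, and NXT1, the partner of NXF1, each differed by 1.65. NXT1 was read at 363 and 346 in low-Myc, 633 and 639 in mid-Myc and 1004 and 1010 in high-Myc cells. Its groups were all apart, and the 1-hour difference was already 0.99 (SE 0.06, limma adjusted p = 1.53e-07), larger than that of any of the 49 pore and transport genes at 1 hour. NXT2, the paralogue of NXT1, was the one called lower in high-Myc cells, at -0.20 (SE 0.07, limma adjusted p = 0.024), while per cell it was called higher at 0.91, so its direction depends on the scale. Its equal-median call was lost without low-Myc replicate 1 (limma adjusted p = 0.0528), low-Myc replicate 2 (0.0946) or high-Myc replicate 2 (0.176).

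Of the 10 genes of the nuclear lamina and inner membrane, 6 were called higher in high-Myc cells and 2 lower, against 37.7% and 26.0% of all tested genes, with a median of 0.39. The share called lower is near that background. The B-type lamins rose, LMNB2 by 1.38 (SE 0.07) and LMNB1 by 1.02 (SE 0.09). LMNA, the gene of the A-type lamins, fell by 0.365 (SE 0.06, limma adjusted p = 0.000172), and SUN2, a protein that links the lamina to the cytoskeleton, fell by 0.94 (SE 0.10, limma adjusted p = 1.59e-06). SUN2 was read at 154 and 117 in high-Myc and at 287 and 279 in low-Myc cells. Per cell LMNA was called higher at 0.78 and SUN2 stood at 0.16 (SE 0.11, limma adjusted p = 0.173), so the direction of LMNA depends on the scale. Of 8 genes for SUMO conjugation, which modifies RANGAP1, 4 were tested and 3 called higher, led by SAE1 at 0.73 (SE 0.05). One of the 3, SUMO2 at 0.18, was not called and was below 0 after quantile normalization (-0.024) and with centring on tested genes (-0.023).

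Further probe sets of the same gene gave a check on the values. Of the 49 genes, 41 had more than 1 probe set above the filter. At 24 hours against low-Myc all of them had the same sign in 37 of the 41 on the equal-median scale and in 41 of 41 per cell. Per cell 91.0% of all tested genes were called higher, so a shared sign there is a weak check. The share with a shared sign over all other genes was not computed on either scale. The exceptions on the equal-median scale were KPNA1, NUP160, NUP88 and RANBP1. At 1 hour on the equal-median scale the sign was shared in 13 of the 41. The highest mean intensity of a background probe set was 694 and the second highest 194. On every array 9 of the 49 genes were above 694 and 38 above 194. The 11 genes at or below 194 on at least 1 array were NUP37, SEH1L, NUP35, NUP155, IPO4, IPO9, IPO11, XPO5, XPO6, RANGAP1 and RCC1, and their readings may hold background signal.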

How the data were processed

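RNA of 6 samples of P493-6 cells was measured on 1-colour Affymetrix arrays. The authors deposited linear probe set intensities from MAS5, per the submitters' processing notes, with the scaling target unstated in the sources used here. Of 49293 human probe sets 45278 carry 1 gene symbol, 1333 several and 2682 none listed, and only the first kind was named, through GEO's platform annotation with symbols updated by Entrez identifier (45208 found). The number of arrays limits the precision.

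Log2 values were taken with no pseudocount. The equal-median scale subtracts each array's human median, which adds 0.14 log2 to high-Myc minus low-Myc and 0.15 to mid-Myc minus low-Myc. The per-cell scale subtracts a curve fitted to the ERCC probe sets of each array by robust loess (span 0.7, degree 1), read at each probe set's mean over the arrays. A gene is its probe set with the highest mean, tested if above the 40th percentile (33.8 intensity). Groups were fitted with limma 3.58.1 (R 4.3.3, lmFit and eBayes with a variance trend, two-sided, Benjamini-Hochberg over 12198 genes), which was tested on simulated data. In the simulation the per-cell differences were too low and more unchanged genes were called than the nominal share, so per-cell p-values are to be read with caution. P-values rest on the spread between duplicates and a spread borrowed from all genes.

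The genes, their roles and the other lists were chosen with earlier results of these data known. Values on every array are given for the highest and lowest gene of each role at 24 hours and the 3 highest and 3 lowest at 1 hour; RAN and XPO1 were added after their values were seen. The other lists are named by up to 2 highest and 2 lowest genes, and the SUN2 and NXT1 intensities were added likewise. Promoter sequences are RefSeq's (GRCh38.p14). The same-numbered arrays of different groups did not deviate together (correlations 0.002, -0.003 and -0.002 over genes), so the replicate number was not used as a block. Alternatives covered the filter, probe set choice, log2(value + 16), the replicate block, the variance trend, the groups fitted, each array left out and other scalings.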

Additional observations from a re-analysis of the deposited data

How the results depend on the processing

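At 24 hours the counts of genes called higher against low-Myc or mid-Myc, and all per-cell counts, stayed within 1.5 times of those reported under every alternative run (filters, mean of all probe sets, log2(value + 16), no variance trend, replicate block, only the groups compared, each array left out, and other scalings, including 1 factor per array and a loess span of 0.4 per cell), and no gene was called lower. The 80th percentile filter left 41 genes. With the replicate block 48, 10 and 48 genes were called higher on the equal-median scale for high-Myc against low-Myc, mid-Myc against low-Myc and high-Myc against mid-Myc, and it changed no count by over 1.5 times.

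The 1-hour equal-median count (10 higher, 0 lower) was not stable. Genes called higher numbered 4 without a variance trend, 2 after quantile normalization, 2 after cyclic loess, 3 with centring on tested genes and 2 in the values as deposited, and from 4 (without low-Myc replicate 2) to 11 with 1 array left out, with 5 without mid-Myc replicate 2. Genes called lower numbered 1 with the 80th percentile filter, 1 with log2(value + 16), 7 after quantile normalization, 7 after cyclic loess, 4 with centring on tested genes and 5 as deposited. The scalings differ by their own construction in the level taken as unchanged.

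Single genes turned as follows. For high-Myc against low-Myc, RANBP2 gave -0.072 and SUMO2 -0.024 after quantile normalization, RANBP2 -0.043 and SUMO2 -0.023 with centring on tested genes, and RANBP3 0.251 as the mean of all probe sets. For mid-Myc against low-Myc, NUP54 gave -0.152, RANBP1 -0.045, RAN -0.02, KPNB1 -0.056, NUP93 -0.005, XPO1 -0.166 and SUMO2 -0.097 after quantile normalization, NUP54 -0.153, RANBP1 -0.037, RAN -0.025, KPNB1 -0.054, XPO1 -0.158 and SUMO2 -0.093 after cyclic loess, and SUMO2 -0.01 as deposited. For high-Myc against mid-Myc, NUP160 gave -0.027 as the mean of all probe sets. The cause was not tested.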

Other observations

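LMNA was brightest at 1 hour in deposited intensity, with 375 and 384 in low-Myc, 446 and 429 in mid-Myc and 276 and 259 in high-Myc cells. Its 1-hour difference on the equal-median scale was 0.35 (SE 0.06, limma adjusted p = 0.0011), and the high-Myc minus mid-Myc difference was -0.72. Per cell the order of the later groups turned, with high-Myc called above mid-Myc at 0.18 (limma adjusted p = 0.0135).

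The dimmest NUP160 probe set above the filter, with a mean intensity of 141, gave 0.78 at 1 hour on the equal-median scale and -1.14 in high-Myc against mid-Myc cells, while the set used gave 0.04 and 0.43.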
